A study of Mus musculus with 6 samples.

Results

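Hox genes encode transcription factors with a homeodomain, the DNA-binding fold that gives the family its name. In the mouse they lie in 4 clusters, HoxA to HoxD, and the genes of a cluster are numbered by paralogue group in the order in which they sit on the chromosome. Low-numbered genes are used toward the head end of the embryo and high-numbered genes toward the tail end, and adult gut keeps part of this code. In the hindgut, Hoxa13 and Hoxd13 are known to be needed for the distal end of the digestive tract, and Hoxb13 is known as a marker of the distal colon and rectum.

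The members described here are the genes of the deposited count table whose symbol is Hox, a cluster letter from a to d and a paralogue number. There were 36 of them among 20170 genes, and 31 passed the filter on low counts that left 15890 genes for testing. RNA was sequenced from colon tissue of wild-type C57BL/6J mice. In 3 samples the mice had received an injection of the mutagen azoxymethane (AOM) at 10 mg/kg, the irritant dextran sulfate sodium (DSS) at 2% in the drinking water in 3 rounds, and restraint for 3 to 4 hours per day in a ventilated 50 mL tube (stressed). In the other 3 the mice had received the same AOM and DSS without restraint (control), so both groups carry the tumour-inducing treatment and no untreated colon is among the samples. The labels give the tissue as colon and the cell type as colorectal cancer cells, and name no segment of the colon. Whether every library comes from its own animal is not stated, so the p-values measure the spread between these libraries, which may be technical.

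Total counts were 27160547 to 33017500 per sample. The epithelial markers Epcam and Krt8 stood at 2035 to 2575 and 3668 to 5933 CPM (counts per 1000000 counts after TMM scaling), so intestinal epithelium was present in every sample. Control replicate 3 stood apart in squamous epithelium markers, whose 9 genes summed to 3037 CPM there, against 43.1 to 70.7 CPM in the stressed samples and 10.2 and 27.5 CPM in control replicates 1 and 2; Krt5 alone was at 889.9 CPM there and at most 0.670 CPM elsewhere. Markers of other cell types also moved with the groups. The summed level of 10 smooth muscle markers was 2578 to 4236 CPM in stressed samples and 5712 to 7794 CPM in controls. For 11 markers of enteric neurons and glia it was 68.1 to 86.3 CPM in stressed samples and 109 to 179 CPM in controls. All 5 markers of Wnt-active tumour and stem cells were higher in stressed samples. Their sums were 541, 753 and 1709 CPM there and 69.6, 433 and 315 CPM in controls. For 4 of the 5, or 80%, the groups did not overlap, against 23.8% of all genes. Control replicate 1 was lowest in each of the 5, with Lgr5 at 0.811 CPM there and at 21.5 to 119 CPM in the other samples. In such bulk samples fewer cells of a type and less RNA per cell cannot be told apart.

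The colon samples carried a posterior Hox profile led by a single gene. Hoxb13 was the highest member in all 6 samples, at 187 to 244 FPKM (fragments scaled by transcript length and library size, the deposited scale on which genes of different length can be compared). Paralogue group 13 supplied 60.0% of all Hox FPKM over the 6 samples and group 9 another 13.8%. Next in level stood Hoxd13 with a mean of 61.2 FPKM, Hoxa9 with 31.8, Hoxb9 with 31.1, Hoxa10 with 23.4, Hoxa5 with 20.7 and Hoxa7 with 17.7 FPKM. Hoxa9 and Hoxb9 were not separated beyond their SDs over the 6 samples (4.44 and 5.70 FPKM), nor were Hoxa10 and Hoxa5 (2.06 and 5.61 FPKM). Hoxd13 had an SD of 38.9 FPKM, so its place in this order differed between samples: it was above Hoxa9 in 4 of 6. Hoxa13 averaged 14.6 FPKM, Hoxd10 12, Hoxa6 8.97 and Hoxd11 6.67. In all, 9 members reached 10 FPKM on average and 14 stayed under 1 FPKM.

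**Figure D1:**
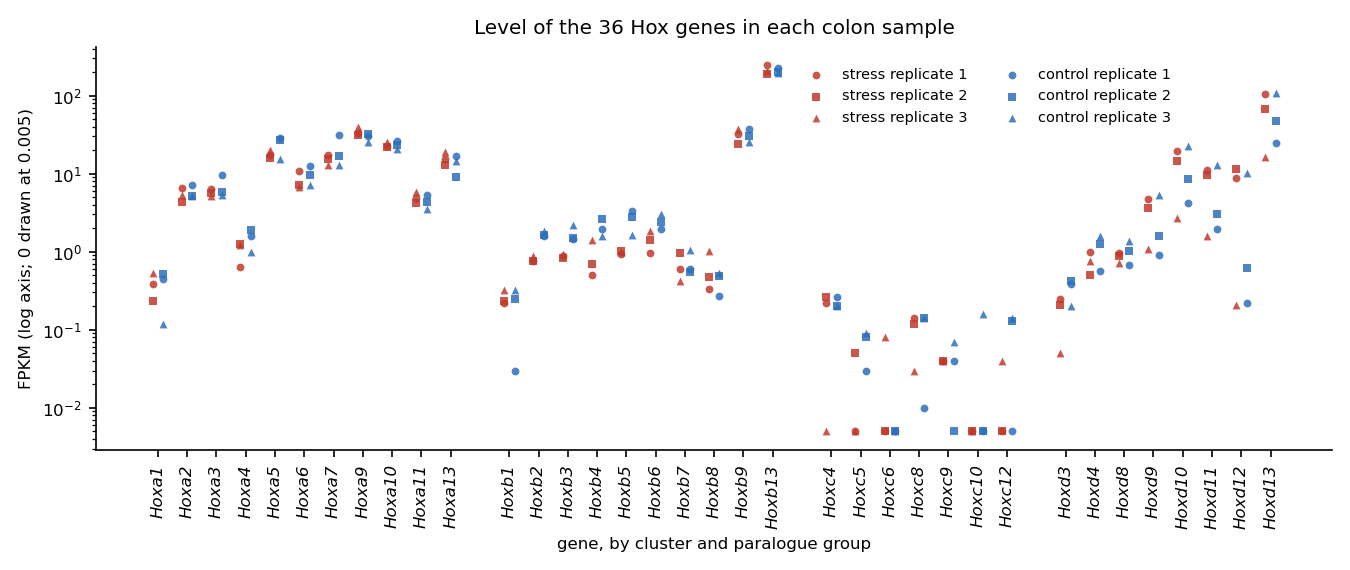
FPKM on a log axis for the 36 Hox genes, ordered by cluster and paralogue number, with 1 point per sample (red, stress; blue, control; symbol shape, replicate). Hoxb13 lies highest at 187 to 244 FPKM, the HoxC genes lie at or under 0.26 FPKM, and Hoxd12 spans 0.21 to 11.3 FPKM.

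The HoxC cluster was barely counted. Its 7 members summed to 0.40, 0.47 and 0.19 FPKM in stressed replicates 1, 2 and 3 and to 0.34, 0.55 and 0.80 FPKM in control replicates 1, 2 and 3, at most 0.158% of Hox FPKM. Hoxc4, the highest of them, had 14, 16 and 0 counts in stressed replicates 1, 2 and 3 and 15, 11 and 13 counts in control replicates 1, 2 and 3. Hoxc12 had 0, 0 and 1 count in stressed samples and 0, 3 and 4 in controls, and Hoxc10 was counted in control replicate 3 alone, with 10. Hoxc6 had 4 counts in stressed replicate 3 and 0 in the other samples. A count of 0 allows up to 3 counts, or 0.0912 to 0.111 CPM at these depths, by counting error only. Hoxc4 and Hoxc8 were the HoxC members that passed the filter, and neither separated the groups.

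The 5'-end genes of HoxD, from Hoxd9 to Hoxd13, varied several-fold between samples and did so together, without following the restraint label. Hoxd13, the last gene of the cluster and the one expressed farthest toward the tail end, stood at 263, 167 and 38.9 CPM in stressed replicates 1, 2 and 3 and at 65.6, 114 and 265 CPM in control replicates 1, 2 and 3. Stressed replicates 1 and 2 and control replicate 3 were thus high, and stressed replicate 3 and control replicates 1 and 2 low. Hoxd12, its neighbour, was at 22.4, 28.7 and 0.512 CPM in stressed samples and at 0.590, 1.52 and 26.2 CPM in controls, a 56.0-fold range. The same samples were high and low for Hoxd11, at 46.9, 40.6 and 6.31 CPM in stressed samples and 8.70, 12.4 and 54.0 CPM in controls. For Hoxd10 the values were 36.5, 26.9 and 4.68 CPM in stressed samples and 8.26, 15.3 and 41.8 CPM in controls. Hoxd9 was at 9.92, 7.69 and 2.18 CPM in stressed samples and 2.03, 3.28 and 11.0 CPM in controls. In each of these 5 genes the 3 high samples lay above the 3 low ones, and each group held samples of both kinds. The highest sample exceeded the lowest 5.45-fold for Hoxd9, 8.95-fold for Hoxd10, 8.56-fold for Hoxd11 and 6.82-fold for Hoxd13. Hoxd10 and Hoxd11 both share exon bases with Gm28309 on the same strand in GENCODE M21, a name not among the genes counted here. Whether this affected their counts was not tested.

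**Figure D2:**
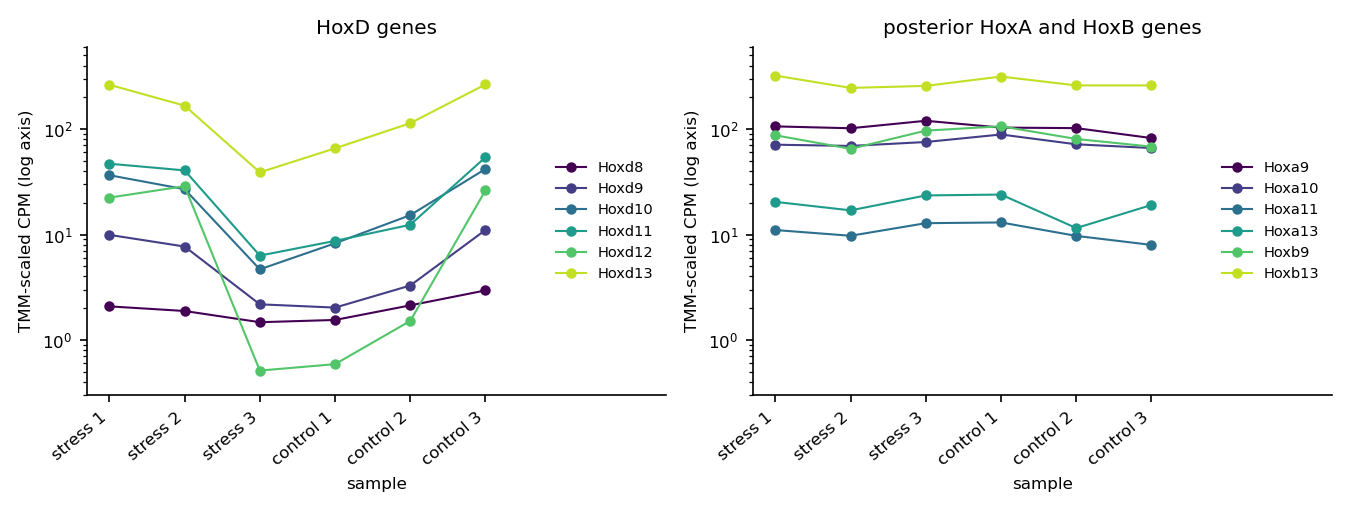
TMM-scaled CPM on a log axis in each sample, for HoxD genes (left) and for posterior HoxA and HoxB genes (right); lines only join the points of 1 gene. Hoxd9 to Hoxd13 dip together in stressed replicate 3 and control replicates 1 and 2, with Hoxd12 down to 0.512 CPM, while Hoxb13 stays between 246 and 321 CPM.

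Ranked by the SD of log2 CPM over the 6 samples, Hoxd12 was number 47 of 15890 genes, Hoxd11 number 505, Hoxd10 number 632, Hoxd13 number 884 and Hoxd9 number 933. Hoxd8, the next gene toward the middle of the cluster, varied less. It ranked 6694, with values of 2.08, 1.88 and 1.47 CPM in stressed samples and 1.55, 2.13 and 2.95 CPM in controls. Beyond it Hoxd4 ranked 3303 and Hoxd3, with 4 to 33 counts per sample, ranked 1188. The proportions within the block were less variable than its level, except for Hoxd12. Relative to Hoxd13 on the FPKM scale, Hoxd10 was at 16.2% to 21.7% and Hoxd9 at 3.42% to 6.62% across the 6 samples. Hoxd12 was at 8.34%, 16.9% and 1.28% of Hoxd13 in stressed replicates 1, 2 and 3 and at 0.890%, 1.31% and 9.69% in control replicates 1, 2 and 3. Evx2, the homeobox gene beyond Hoxd13 at that end of the cluster, was also higher in the same 3 samples, at 2.45, 1.6 and 0.416 CPM in stressed samples and 0.627, 0.216 and 2.1 CPM in controls. Mtx2, a mitochondrial import gene on the other side of the cluster, was even across samples at 55.0 to 62.7 CPM.

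The bases before the transcription starts of this block are printed here because its 5 genes moved together across samples. They are RefSeq promoter windows of the build GRCm38.p6 on the plus strand of chromosome 2, 5′ to 3′, 250 bases each: chr2:74667975-74668224 for Hoxd13, chr2:74674763-74675012 for Hoxd12, chr2:74682073-74682322 for Hoxd11 (1 of its 2 listed starts), chr2:74691641-74691890 for Hoxd10 and chr2:74697513-74697762 for Hoxd9. The expression files rest on another build, GRCm39, so these coordinates were used for nothing else. Capitals mark matches on either strand to the box CCAAT, the box TATAAA, the caudal-type core TTTATG and the group 13 Hox core CAATAAA. The box TATAAA read on one strand and the other can overlap itself.
Hoxd13: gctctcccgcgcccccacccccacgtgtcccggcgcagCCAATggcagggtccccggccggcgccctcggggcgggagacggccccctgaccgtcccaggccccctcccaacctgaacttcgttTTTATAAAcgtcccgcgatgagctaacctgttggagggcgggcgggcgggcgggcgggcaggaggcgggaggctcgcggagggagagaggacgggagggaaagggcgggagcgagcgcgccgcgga
Hoxd12: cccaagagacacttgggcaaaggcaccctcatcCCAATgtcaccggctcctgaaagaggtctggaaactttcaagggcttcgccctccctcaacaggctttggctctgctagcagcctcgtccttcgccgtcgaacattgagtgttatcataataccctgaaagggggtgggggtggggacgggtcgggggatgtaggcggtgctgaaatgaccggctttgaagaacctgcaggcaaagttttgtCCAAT
Hoxd11: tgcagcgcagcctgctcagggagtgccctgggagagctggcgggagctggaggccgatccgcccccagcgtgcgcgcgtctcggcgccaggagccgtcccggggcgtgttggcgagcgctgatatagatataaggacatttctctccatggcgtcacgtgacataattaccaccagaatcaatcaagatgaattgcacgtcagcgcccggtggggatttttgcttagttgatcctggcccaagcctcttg
Hoxd10: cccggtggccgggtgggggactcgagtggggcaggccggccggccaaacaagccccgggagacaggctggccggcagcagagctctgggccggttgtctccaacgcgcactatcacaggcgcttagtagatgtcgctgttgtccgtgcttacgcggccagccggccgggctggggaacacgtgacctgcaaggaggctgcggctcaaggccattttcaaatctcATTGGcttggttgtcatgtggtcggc
Hoxd9: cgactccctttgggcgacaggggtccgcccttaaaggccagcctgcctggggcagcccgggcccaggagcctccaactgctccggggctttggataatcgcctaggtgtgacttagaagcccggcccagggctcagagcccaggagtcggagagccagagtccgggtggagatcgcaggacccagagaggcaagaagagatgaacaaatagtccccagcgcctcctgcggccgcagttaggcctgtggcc
In these windows CCAAT was found before Hoxd13, Hoxd12 and Hoxd10, TATAAA before Hoxd13, on both strands at overlapping places, and neither TTTATG nor the core CAATAAA before any of the 5; the other listed Hoxd11 window, not printed, holds 1 TTTATG. The Hoxd13 window held 31 CpG dinucleotides and 74.4% G and C, against medians of 6 and 52.4% over 32851 windows of the same length. The medians over the 23 Hox windows were 12 and 58.0%, and the Hoxa13 window held more than that of Hoxd13, 35 and 80.0%. The Hoxd12 window held 10 CpG and 55.6%. Over all windows CCAAT occurred in 33.8%, TATAAA in 12.4%, TTTATG in 10.8% and CAATAAA in 4.20%. A match in these windows describes letters and does not show binding.

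Hoxd13 took 28.9%, 25.1% and 6.84% of the FPKM of paralogue group 13 in stressed replicates 1, 2 and 3 and 9.30%, 18.2% and 33.5% in control replicates 1, 2 and 3. The other group 13 genes were steadier. Hoxb13 was at 321, 246 and 257 CPM in stressed samples and 315, 259 and 259 CPM in controls, with overlapping groups and a log2 fold change (stress minus control) of -0.02 ± 0.15 (SE). Hoxa13 was at 20.4, 16.9 and 23.5 CPM in stressed samples and 23.9, 11.5 and 19.1 CPM in controls, also overlapping, with a log2 fold change of 0.16 ± 0.28. Paralogue groups 10 to 13 together made up 75.9%, 73.7% and 66.5% of Hox FPKM in stressed samples and 64.0%, 67.0% and 76.6% in controls. The group means of this share, 72.0 ± 4.93% in stressed samples and 69.2 ± 6.57% in controls (SD, n = 3 each), differed by less than the SD of either group.

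Other markers of place along the gut ordered the samples in different ways. In the 3 samples with high HoxD the squamous sums were 70.7 and 46.6 CPM in stressed replicates 1 and 2 and 3037 CPM in control replicate 3. The other 3 samples had 43.1 CPM in stressed replicate 3 and 10.2 and 27.5 CPM in control replicates 1 and 2. Only control replicate 3 stood apart, and 46.6 and 43.1 CPM were close. Among the single genes only Krt14 and, from few counts, Trp63 had their 3 highest values in the samples with high HoxD. Krt13 was at 14.6 CPM in stressed replicate 2 and 15.9 CPM in stressed replicate 3. Krt4 was at 0.858, 1.63 and 2.98 CPM in stressed replicates 1, 2 and 3. Without control replicate 3, Hoxd12 had a log2 fold change of 4.02 (edgeR adjusted p = 0.311), against 0.86 ± 1.63 with all samples, since its high samples were then both stressed. Atp12a, the colonic proton pump of the distal colon, was at 269.6, 183 and 134 CPM in stressed samples and 338, 219 and 563 CPM in controls. Insl5, a hormone of distal enteroendocrine cells, was at 93.9, 49.1 and 21.3 CPM in stressed samples and 128, 66.0 and 52.8 CPM in controls. Control replicate 1, where HoxD was low, was thus highest for Insl5 and next to highest for Atp12a. Of the proximal gut markers, Aqp4, a water channel, was at 269, 198 and 127 CPM in stressed samples and 751, 289 and 204 CPM in controls, and Fabp2, the intestinal fatty acid binding protein, at 19.0, 15.3 and 8.30 CPM in stressed samples and 61.5, 20.2 and 17.6 CPM in controls. For both, control replicate 1 was highest, while Slc10a2 of the same list was lowest there. Fabp6, the ileal bile acid binding protein, was at 4.32, 2.84 and 1.41 CPM in stressed samples and 2.47, 2.16 and 7.97 CPM in controls. Its 3 highest samples were the 3 with high HoxD, though 2.84 CPM in stressed replicate 2 and 2.47 CPM in control replicate 1 were close. The other tested genes of that list, Aqp4, Fabp2, Slc10a2 and Gata4, did not have this order. The smooth muscle marker sum did not follow HoxD, being 7700 CPM in control replicate 1 and 7794 CPM in control replicate 3. The part of tissue composition or of the sampled segment in the HoxD values was not tested.

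**Figure D3:**
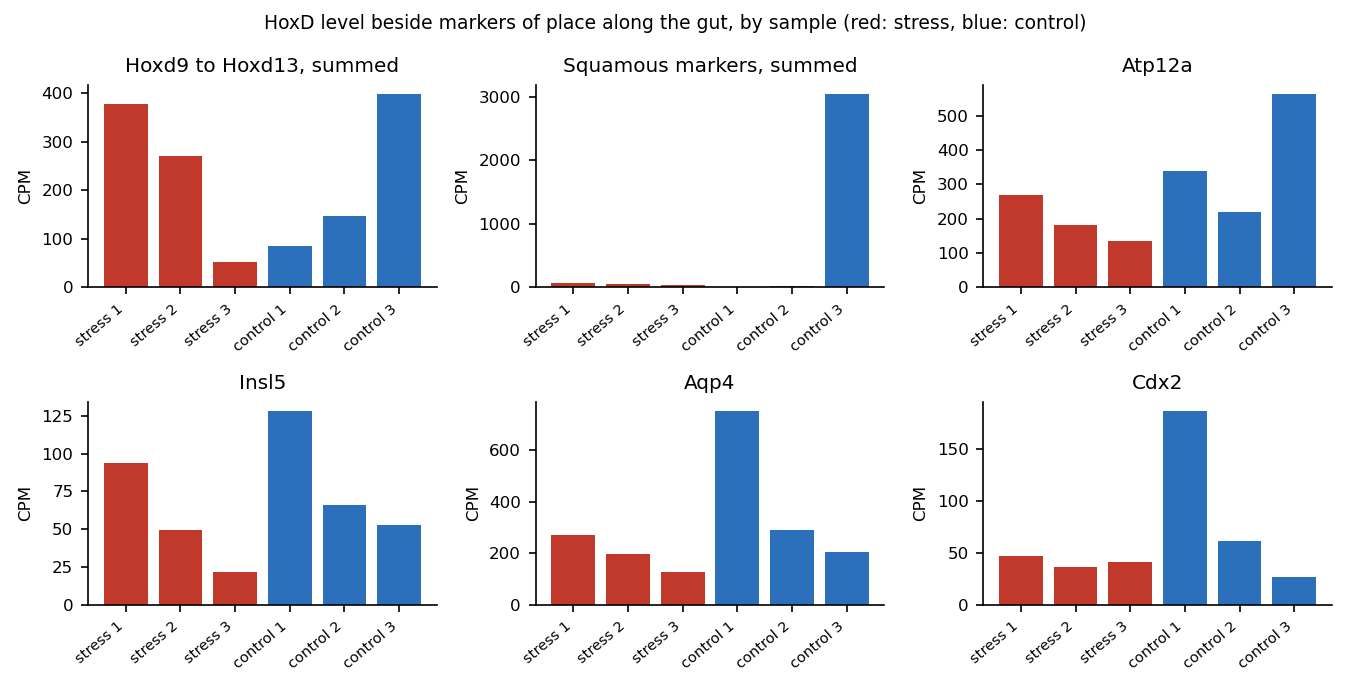
Bars give CPM per sample (red, stress; blue, control) for the sum of Hoxd9 to Hoxd13, the sum of 9 squamous markers, the distal markers Atp12a and Insl5, the proximal marker Aqp4 and the regulator Cdx2. The HoxD sum is highest in control replicate 3 (398 CPM) and stressed replicate 1 (379 CPM), the squamous sum in control replicate 3 alone (3037 CPM), and Insl5, Aqp4 and Cdx2 in control replicate 1.

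Between stressed and control samples, the lower values in stressed samples that separated the groups were those of Hoxb2 to Hoxb6, anterior and central genes of HoxB, a run of neighbours singled out here after their values were seen. Hoxb5, a gene used in gut neural crest and mesenchyme, was at 1.75, 1.91 and 1.76 CPM in stressed samples and 6.78, 5.19 and 3.10 CPM in controls, a log2 fold change of -1.47 ± 0.35. Hoxb3 was at 3.34, 3.10 and 3.27 CPM in stressed samples and 5.75, 5.52 and 8.15 CPM in controls, a log2 fold change of -1.0 ± 0.26. Hoxb2 was at 1.23, 1.24 and 1.38 CPM in stressed samples and 2.76, 2.60 and 2.98 CPM in controls, a log2 fold change of -1.11 ± 0.29. In these genes the stressed samples lay close together and below every control. Hoxb4, known for its role in blood stem cells, was at 1.29, 1.79 and 3.43 CPM in stressed samples and 5.38, 6.64 and 4.11 CPM in controls, with a log2 fold change of -1.31 ± 0.43. Hoxb6 was at 1.29, 1.88 and 2.34 CPM in stressed samples and 2.76, 3.07 and 3.98 CPM in controls, with a log2 fold change of -0.83 ± 0.34. Summed over the 5 genes, the level was 8.88, 9.92 and 12.2 CPM in stressed replicates 1, 2 and 3 and 23.4, 23.0 and 22.3 CPM in control replicates 1, 2 and 3. All 5 are low genes in these libraries, with 39 to 268 counts per sample.

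**Figure D4:**
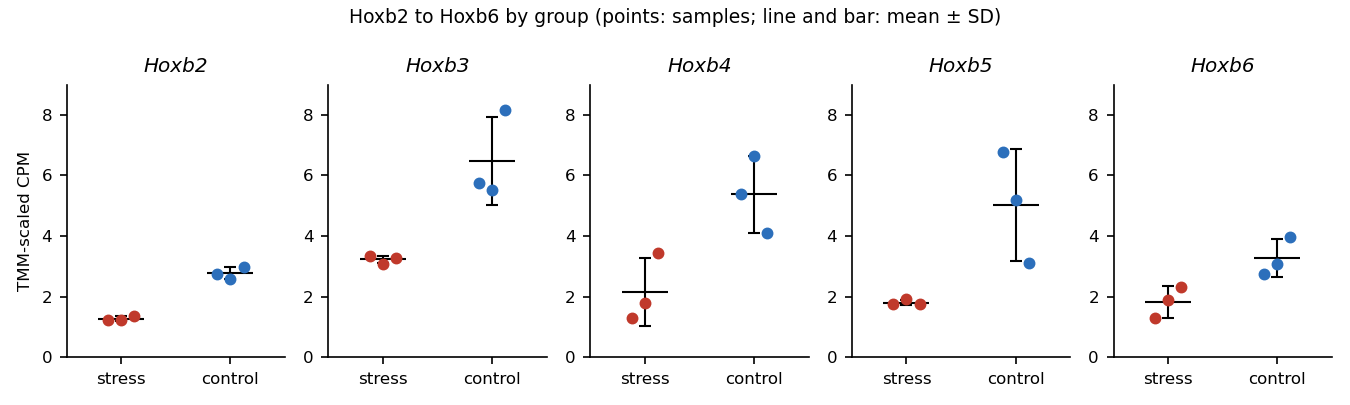
TMM-scaled CPM of Hoxb2 to Hoxb6 in stressed (red) and control (blue) samples; points are samples, the line and bar are mean ± SD (n = 3 each). In each panel the highest stressed sample lies below the lowest control, by the narrowest margin for Hoxb6 (2.34 and 2.76 CPM) and Hoxb4 (3.43 and 4.11 CPM).

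None of these differences passed the adjusted threshold of the edgeR quasi-likelihood test. Over all genes 0 of 15890 passed an adjusted p of 0.05 (0%), and 0 of 31 Hox members, whose smallest adjusted p was 0.195, for Hoxb3 and Hoxb5. The adjusted p was 0.197 for Hoxb2, 0.251 for Hoxb4 and 0.297 for Hoxb6. At an unadjusted edgeR p under 0.05 stood 5 of 31 Hox members, or 16.1%, against 16.6% of all genes tested, so the count of members is no larger than the background. All 5 were lower in stressed samples, where 8.82% of all genes fell under that limit as lower and 7.82% as higher. The groups did not overlap for the same 5 members, or 16.1%, against 23.8% of all genes. DESeq2 called 3 of the 31 Hox members to which it gave an adjusted p, or 9.68%, against 4.88% of all genes; these were Hoxb5, Hoxb3 and Hoxb2, with adjusted p of 0.00688, 0.0112 and 0.0203. The highest adjusted p over the alternatives run was 0.546 for Hoxb5, 0.55 for Hoxb3 and 0.55 for Hoxb2, each without stressed replicate 2. By limma-voom 0 members passed and the same number, 5, had an unadjusted p under 0.05.

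Smooth muscle and enteric neuron markers moved with the groups in the same direction as Hoxb2 to Hoxb6. All 10 smooth muscle markers and 10 of 11 neuron and glia markers were lower in stressed samples, against 51.6% of all genes tested. Their median log2 fold changes were -1.05 and -1.34. The median over Hoxb2 to Hoxb6 was -1.11. Fibroblast markers summed to 1241 to 1828 CPM in stressed samples and 891 to 1822 CPM in controls, which overlap. B cell markers summed to 182, 47.7 and 9.99 CPM in stressed replicates 1, 2 and 3 and to 82.3, 513 and 338 CPM in control replicates 1, 2 and 3. The part of these cell types in the Hoxb2 to Hoxb6 values was not tested. The antisense transcript Hoxb5os, which shares exon bases with Hoxb5, was at 2.51, 2.14 and 1.19 CPM in stressed samples and 3.65, 3.82 and 4.23 CPM in controls. Since the strand setting of the counting is not given in the sources used here, it is not known how reads in the shared bases were assigned. Hoxb2 and Hoxb3 likewise share exon bases with the antisense Hoxb3os in GENCODE M21, whose values were not analysed here.

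The rest of HoxB did not separate the groups. Hoxb7 had a log2 fold change of -0.19 ± 0.50 and Hoxb8 of 0.46 ± 0.50, both from under 3 CPM in every sample. Hoxb9, a group 9 gene like Hoxa9, was at 87.3, 64.9 and 96.6 CPM in stressed samples and 106, 80.6 and 68.1 CPM in controls, with a log2 fold change of -0.03 ± 0.21. Hoxb1, the most anterior gene of the cluster, had 15 to 20 counts in stressed samples and 2 to 22 in controls. Its log2 fold change was 0.32 ± 0.71, with overlapping groups. Over the 10 HoxB members the median log2 fold change was -0.51, over 11 HoxA members -0.15 and over 8 HoxD members 0.07. Over all 31 members it was -0.15, with 20 lower and 11 higher, and over all genes tested -0.01, where 48.4% were higher.

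**Figure D5:**
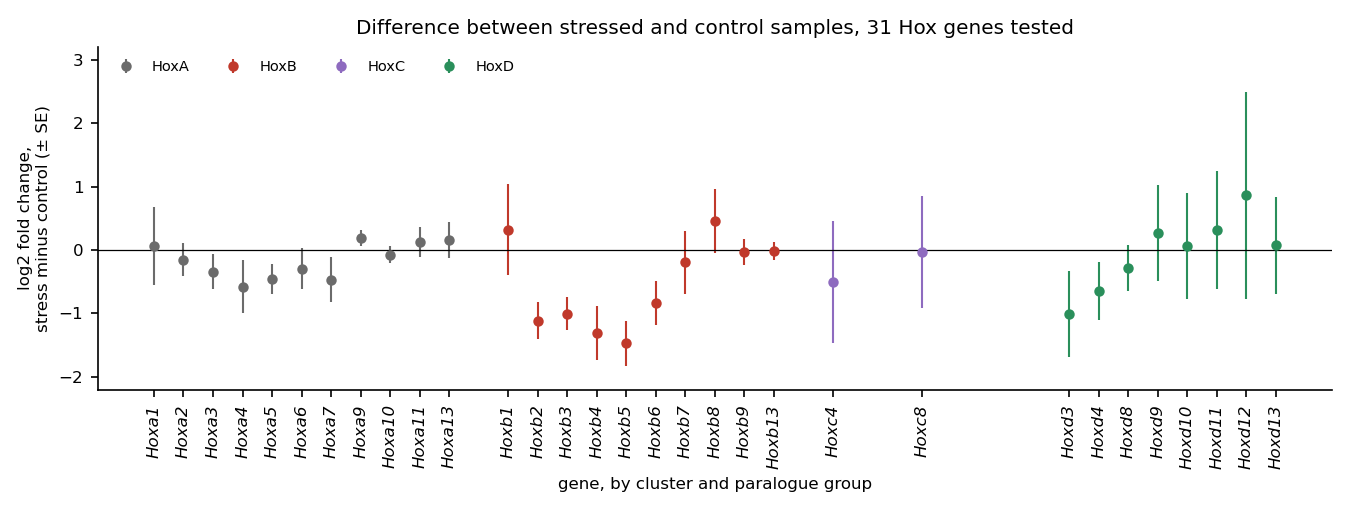
Log2 fold change, stress minus control, of the 31 tested Hox genes, ordered by cluster and paralogue number, with bars of ± SE. Hoxb2 to Hoxb6 lie between -1.47 and -0.83, HoxA genes lie between -0.58 and 0.19, and Hoxd9 to Hoxd13 lie above 0 with SEs of 0.76 to 1.63.

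HoxA varied less between samples than Hoxd9 to Hoxd13: by the SD of log2 CPM its members lay at a median percentile of 62 among all genes tested, and those 5 at 96. Control replicate 1 was highest for 8 of its 11 members. Hoxa5, which patterns gut mesenchyme and epithelium in the mouse, was at 32.8, 29.6 and 36 CPM in stressed samples and 56.9, 49.2 and 29.3 CPM in controls, so the groups overlapped through control replicate 3 (log2 fold change -0.46 ± 0.24, edgeR adjusted p = 0.362). Its log2 fold change was -0.26 without control replicate 1 and -0.69 without control replicate 3. Hoxa7 was at 34.2, 29.9 and 23.8 CPM in stressed samples and 64.4, 31.9 and 25.2 CPM in controls. Without control replicate 1 its log2 fold change was 0.04 and without control replicate 3 -0.72, against -0.47 ± 0.35 with all samples. Hoxa3 behaved likewise, at 16.2, 14.2 and 12.4 CPM in stressed samples and 26.1, 14.4 and 13.7 CPM in controls. Its log2 fold change was 0.02 without control replicate 1 and -0.34 ± 0.28 with all samples. In GENCODE M21 Hoxa3 shares exon bases with the antisense transcripts Hoxaas2 and Hoxaas3, and Hoxa7 with Hoxaas3. Hoxaas2 and Hoxaas3 were also highest in control replicate 1, at 3.54 and 5.90 CPM. Whether this affected the Hoxa3 and Hoxa7 counts was not tested. Hoxa4 was at 0.98, 1.91 and 1.76 CPM in stressed samples and 2.58, 2.85 and 1.52 CPM in controls. Of the posterior members, Hoxa9 was at 106, 102 and 119.8 CPM in stressed samples and 103, 102 and 82.1 CPM in controls, with a log2 fold change of 0.19 ± 0.13 (edgeR adjusted p = 0.451), and of 0.12 without stressed replicate 3 and 0.088 without control replicate 3. Hoxa10 ranged from 66.1 to 88.8 CPM and Hoxa11 from 7.97 to 13 CPM over the 6 samples. Hoxa11 shares exon bases with the antisense transcript Hoxa11os, which was far more abundant, at 178, 122 and 146 CPM in stressed samples and 244, 182 and 139 CPM in controls, so its values are uncertain. Hottip, a non-coding transcript next to Hoxa13, was at 24.7, 14 and 22.1 CPM in stressed samples and 48.9, 23.2 and 17.9 CPM in controls, again highest in control replicate 1.

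At the low-numbered end of HoxD, Hoxd3 was at 0.735, 0.606 and 0.128 CPM in stressed samples and 1.216, 1.19 and 0.578 CPM in controls, and Hoxd4 at 2.54, 1.28 and 1.83 CPM in stressed samples and 1.55, 3.17 and 4.08 CPM in controls. Both overlapped between groups, with log2 fold changes of -1.01 ± 0.67 and -0.64 ± 0.46. Without stressed replicate 3 the value for Hoxd3 was -0.56. For Hoxd4 it was -0.42 without stressed replicate 2 and -0.33 without control replicate 3. These genes share exon bases with each other in GENCODE M21, so the counting could split reads between them. By paralogue number over all clusters, 9 of 11 members of groups 1 to 4 had a negative log2 fold change. It was 8 of 9 for groups 5 to 8 and 3 of 11 for groups 9 to 13, against 51.6% of all genes tested. The medians were -0.58, -0.29 and 0.13 in that order. The negative members include Hoxb2 to Hoxb6, singled out after their values were seen. The positive ones include Hoxd9 to Hoxd13, which varied together between samples, with SEs of 0.76 to 1.63. These counts are therefore not of independent genes.

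Genes that work with or upstream of Hox genes were read from pathway lists. Of the Hox cofactors, which bind DNA beside Hox proteins, 0 of 9 passed the edgeR threshold, with 4 higher and 5 lower. An unadjusted edgeR p under 0.05 was found for 2 of them, or 22.2%, against 16.6% of all genes. Pbx3 was at 11.6, 15.3 and 12.2 CPM in stressed samples and 19.1, 18.4 and 19.8 CPM in controls, a log2 fold change of -0.55 ± 0.16 (edgeR adjusted p = 0.235), with no overlap. Meis1 was at 6.65, 5.01 and 4.20 CPM in stressed samples and 7.11, 8.62 and 18.0 CPM in controls, also without overlap (log2 fold change -1.09 ± 0.40, edgeR adjusted p = 0.269). The groups did not overlap for these 2 of the 9 cofactors, or 22.2%, against 23.8% of all genes. The related cofactors Pknox1 and Pknox2 overlapped between groups, with log2 fold changes of 0.12 and -0.34.

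The caudal factors Cdx1 and Cdx2, which activate Hox genes in the embryo and hold intestinal identity in the adult, were highest in control replicate 1, where HoxD was low. Cdx2 was at 47.1, 35.9 and 41.5 CPM in stressed samples and 186, 61.7 and 26.4 CPM in controls (log2 fold change -1.14 ± 0.65, edgeR adjusted p = 0.401). Cdx1 was at 230.2, 208 and 129.5 CPM in stressed samples and 333, 228 and 216 CPM in controls. Its lowest sample was stressed replicate 3, where the Hoxd9 to Hoxd13 sum was also lowest (52.6 CPM). For Cdx2 the lowest was control replicate 3, where that sum was highest (398 CPM). Gdf11, a growth factor that sets posterior Hox onset in the embryo, was at 5.88, 14.7 and 28.2 CPM in stressed samples and 0.921, 6.35 and 5.02 CPM in controls, with overlap (log2 fold change 1.99 ± 0.80, edgeR adjusted p = 0.295). Nr6a1, a nuclear receptor of trunk development, had a log2 fold change of -0.34 ± 0.19. Of these 4 tested axial regulators 0 passed in edgeR or DESeq2. The unadjusted edgeR p was under 0.05 for 1, Gdf11, or 25%, against 16.6% of all genes.

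Polycomb proteins keep Hox genes silent and Trithorax proteins keep them active. Of 13 Polycomb genes 9 were higher and 4 lower, with 0 past the edgeR threshold and 2, or 15.4%, at an unadjusted p under 0.05, against 16.6% of all genes. Those were Cbx2, at 18.3, 19.5 and 31.3 CPM in stressed samples and 7.63, 12.4 and 11.3 CPM in controls, and Ezh2, the H3K27 methyltransferase, at 63.5, 72.4 and 79.3 CPM in stressed samples and 41.1, 54.5 and 49.8 CPM in controls. For both the groups did not overlap, the edgeR adjusted p was 0.195, and DESeq2 called them (adjusted p of 0.00768 for Cbx2 and 0.0331 for Ezh2). DESeq2 called 2 of the 13 Polycomb genes, and 4.88% of all genes. The groups did not overlap for 4 of the 13, or 30.8%, against 23.8% of all genes. Suz12 and Phc1 had log2 fold changes of 0.15 ± 0.08 and 0.37 ± 0.18. Among 8 Trithorax genes and H3K27 demethylases, Ash2l was at 89.9, 90.5 and 87.7 CPM in stressed samples and 56.1, 62.5 and 64.9 CPM in controls, a log2 fold change of 0.55 ± 0.09 (edgeR adjusted p = 0.191; DESeq2 called it). Kdm6b, an H3K27 demethylase, had 0.48 ± 0.12, and Kmt2a, the activator of Hox genes known from leukaemia, had -0.37 ± 0.14. Of the 8, 4 were higher, 4 lower, 0 passed in edgeR and 1, Ash2l, passed in DESeq2. An unadjusted edgeR p under 0.05 was found for 3, or 37.5%, against 16.6% of all genes. The groups did not overlap for 4 higher and 1 lower gene, or 62.5%, against 23.8% of all genes. In the retinoic acid list, whose signal induces anterior Hox genes in the embryo, 6 of 10 tested genes were higher and 4 lower. Of this list 0 passed in edgeR or DESeq2, and 1, or 10%, had an unadjusted edgeR p under 0.05. Its Aldh1a1, a retinal dehydrogenase, was at 12.7, 14.5 and 8.90 CPM in stressed samples and 32.0, 15.9 and 22.5 CPM in controls, and Stra6, a retinol receptor, at 64.4, 90.9 and 130.0 CPM in stressed samples and 2.73, 24.5 and 58.1 CPM in controls. The receptor Rara, with a log2 fold change of 0.35 ± 0.18, and Aldh1a3, with 1.19 ± 0.64, did not pass.

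Among transcription factors of gut regions, Gata4, which marks the small intestine, was under 1 CPM in all samples. Isx, an intestinal homeobox factor, was at 15.3, 21.1 and 11.6 CPM in stressed samples and 10.4, 6.64 and 7.82 CPM in controls (edgeR adjusted p = 0.236; DESeq2 adjusted p = 0.0403). Of the 6 tested, 3 were higher, 3 lower, 0 passed in edgeR and 1, Isx, passed in DESeq2, which called 4.88% of all genes. The unadjusted edgeR p was under 0.05 for 1, or 16.7%, against 16.6% of all genes. Of the 4 tested distal colon markers 2 were higher, 2 lower, 0 passed in edgeR and 1, Scnn1b, passed in DESeq2. An unadjusted edgeR p under 0.05 was found for 2, or 50%, against the same 16.6% of all genes. The lowest p among them belonged to Scnn1b, a subunit of the epithelial sodium channel, at 12.6, 17.0 and 14.2 CPM in stressed samples and 5.68, 5.05 and 7.97 CPM in controls (edgeR adjusted p = 0.191; DESeq2 adjusted p = 0.000543). Its partner Scnn1g overlapped between groups, with a log2 fold change of 0.33 ± 0.69. Of the 5 tested proximal gut markers 1 was higher, 4 lower and 0 passed in edgeR or DESeq2. The unadjusted edgeR p was under 0.05 for 1 of them, or 20%, against 16.6% of all genes. Slc10a2, the ileal bile acid transporter, was at 2.11, 2.62 and 3.01 CPM in stressed samples and 0.479, 0.938 and 1.61 CPM in controls.

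Among the genes beside the clusters, 7 of 11 tested were higher, 4 lower and 0 passed in edgeR or DESeq2. An unadjusted edgeR p under 0.05 was found for 5, or 45.5%, against 16.6% of all genes. Evx1, next to Hoxa13, was at 24.4, 37.2 and 78.9 CPM in stressed samples and 7.11, 24.4 and 19.4 CPM in controls. Skap2 and Hibadh, other genes beside HoxA, had log2 fold changes of 0.40 ± 0.11 and -0.37 ± 0.12, and Skap1, an adaptor of T cells beside HoxB, of -1.49 ± 0.47. Of 8 tested non-coding transcripts of the clusters 2 were higher, 6 lower and 0 passed in edgeR or DESeq2. The unadjusted edgeR p was under 0.05 for 1 of them, or 12.5%, against 16.6% of all genes. Halr1, from HoxA, was at 1.19, 3.67 and 6.47 CPM in stressed samples and 0, 1.52 and 1.31 CPM in controls, and Mira at 31.2, 28.8 and 22.1 CPM in stressed samples and 57.1, 38.1 and 27 CPM in controls. Hotair, from HoxC, had 0 counts in all 6 samples.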

How the data were processed

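Colon RNA of 6 samples was analysed, 3 stressed and 3 control, grouped by the treatment label; replicates were numbered in accession order and pair nothing. The authors deposited whole-number counts per gene and FPKM values, per the file headers. The build GRCm39 and the tools HISAT2 2.1.0 and featureCounts 1.6.2 stand, without roles, in the submitters' processing notes. Neither annotation nor strand setting is given in the sources used here.

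Counts were filtered with filterByExpr, TMM-scaled and entered into the edgeR 4.0.16 quasi-likelihood test (robust dispersions, group as the term, R 4.3.3), with Benjamini-Hochberg adjustment over all 15890 genes and a threshold of 0.05. The SE is the absolute log2 fold change over the square root of F. FPKM served to compare levels between genes and for sums and shares of Hox genes in each sample, and entered no test. Alternatives were DESeq2 1.42.0, limma-voom (limma 3.58.1), other scalings, no filter and leaving out each sample. No 2 samples agreed within sampling noise (chi-square per gene of at least 39.3).

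The members and lists were chosen with earlier results of these data known. Per-sample values are given for the 12 members of smallest p, groups 12 and 13, the highest gene of each cluster, up to 4 genes per list, and Cdx1, Cdx2, Gata4 and Insl5 (Prac1 was not analysed here, and 1 further gene of the rule is not reported here). Other genes with values were chosen after their values were seen, among them Hoxd9 to Hoxd11, Hoxb9, Evx2, Mtx2 and Hoxa11os. Exon overlaps were read from GENCODE M21 (GRCm38), by name only. Promoter windows matched 21 of the 36 members in the RefSeq table.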

Additional observations from a re-analysis of the deposited data

How the results depend on the processing

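No alternative was added after seeing the data. With edgeR 0 genes passed under each scaling, without the filter and without each sample, and with limma-voom 0. DESeq2 called 798 of 16366 genes, or 4.88%. The Hox members past the threshold were 0, and 3 of 31 in DESeq2, or 9.68%. The pathway list members past it were 0, and 5 in DESeq2, for which no share of the lists was computed. The cause of the gap between edgeR and DESeq2 was not tested. Lower Hox members at an unadjusted p under 0.05 numbered 3 to 5 when 1 sample was left out: Hoxb2, Hoxb3 and Hoxb5 remained without stressed replicate 2 or control replicate 2. Higher ones numbered 0 to 1, the 1 being Hoxd12 without control replicate 3. The Hox median log2 fold change was -0.36 to -0.12 without 1 sample, and without stressed replicate 1 the count of lower members was 23 of 30, against 20 of 31 with all samples. By CPM the share of groups 10 to 13 was 65.1% in stressed samples and 62.7% in controls, and groups 12 and 13 alone held 62.0% and 59.7% of Hox FPKM.

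Among the named genes these log2 fold changes turned sign. Without control replicate 1 they were 0.037 for Hoxa7, 0.019 for Hoxa3, 0.081 for Hoxb13 and -0.28 for Hoxd13. Hoxb13 was 0.032 by library size only, 0.06 without stressed replicate 2 and 0.03 without stressed replicate 3, within -0.14 to 0.081 over the samples left out. Hoxd13 was -0.068 in limma-voom, -0.52 without stressed replicate 1 and -0.08 without control replicate 2, within -0.52 to 0.80. Hoxa13 was -0.084 without control replicate 2 (range to 0.40), Hoxa3 ranged from -0.51, Hoxa7 from -0.72, and Hoxc4 was 0.070 without stressed replicate 3 (range from -1.04). Hoxb2 to Hoxb6 stayed lower in every alternative run. No paired analysis was possible because the labels give no replicate numbers shared between the groups. Without stressed replicate 1 Hoxa4 was at -0.32, against -0.58. At these depths a count of 0, as for Hoxc4 in stressed replicate 3, allows up to 3 counts.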
